A study of Homo sapiens with 6 samples.

Results

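Band 19p12 of human chromosome 19 holds a run of zinc finger genes that multiplied during primate evolution. The 34 genes described here are the zinc finger genes of that cluster from ZNF101 and ZNF14 at its outer end to ZNF254 towards the centromere and were taken by name and place. All 34 were found among the 57820 human gene rows of the table, and all are annotated as protein-coding. Messenger RNA was sequenced from HCT116, a cell line from a human colorectal tumour. There were 3 samples of DKO1, the HCT116 derivative whose DNMT1 and DNMT3B genes the submitters give as knocked out, and 3 samples of unmodified HCT116 (WT), all grown in the same serum-containing medium. Every DKO1 sample is of a single derived line, so the effect of the knockouts and any other difference between the lines cannot be told apart. The labels number the samples 1 to 3 in each genotype without saying whether they came from separate cultures. A p-value here therefore weighs a difference against a sample-to-sample spread that may be technical.

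Most of these genes encode KRAB zinc finger proteins. An array of zinc fingers reads a DNA sequence, often within a transposable element, and the KRAB domain binds the corepressor TRIM28, which brings the histone methyltransferase SETDB1 to the site. ZNF91 is known for repressing SVA elements and ZNF93 for repressing LINE-1 elements. The genes themselves arose by repeated duplication, lie side by side, and in many cell types carry histone H3 lysine 9 methylation over their zinc finger exons. DNMT1 copies DNA methylation onto newly replicated strands, and DNMT3B adds it to unmethylated sites.

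Values are TPM, which divides read support by transcript length and gives every sample the same sum, and means are given ± SD over 3 samples per genotype. Differences were tested with limma on log2(TPM + 1) over the 13604 genes that reached 1 TPM in 3 or more samples, with Benjamini-Hochberg adjustment over all of them, and called at an adjusted p below 0.05. Log2 fold changes are DKO1 minus WT on that log2 scale, which understates changes of low genes, and they come with the standard error (SE). Sequencing depth cannot be read from TPM and is unknown here. In RNA from many cells, fewer cells expressing a gene and less RNA per cell cannot be told apart. DNMT1 was at 31.07, 30.81 and 46.82 TPM in DKO1, against 244.87, 249.97 and 231.01 TPM in WT (log2 fold change −2.73, SE 0.17, adjusted p = 3.59e-05). DNMT3B was at 4.86, 4.85 and 3.56 TPM in DKO1, against 8.22, 7.09 and 6.77 TPM in WT (log2 fold change −0.63, SE 0.17, adjusted p = 0.03), so both knocked-out genes were lower in every sample labelled DKO1. Leaving out any sample but DKO1 replicate 2 ended the DNMT3B call, with adjusted p up to 0.11. Of 6 epithelial markers all were detected in every sample. Of the 6 markers of blood, fibroblast and endothelial cells that were found none passed 0.84 TPM in DKO1 or 0.38 TPM in WT. The sum of these 6 was still higher in DKO1, at 1.74 to 2.08 TPM against 0.68 to 0.9 TPM in WT, though COL3A1 was lower. Mitochondrial transcripts took 21.2% to 27.7% of the TPM in DKO1 and 19.7% to 20.1% in WT.

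The cluster split by its level in WT. Of the 34 genes, 10 were at 1 TPM or above in every WT sample, 23 were below 1 TPM in every WT sample, and ZNF91 lay across that line. Of the 10 genes active in WT, 5 fell in DKO1, 0 rose by limma and 5 did not pass the test. At an unadjusted p below 0.05, 7 of the 10 were lower and 1, ZNF101, was higher. The share of all tested genes at that looser threshold is not given here. These counts therefore cannot be set against the shares below, which are for adjusted p. Of the 23 genes low in WT, all had a higher mean in DKO1, and in 19 every DKO1 value lay above every WT value. A gene listed at 0 in WT cannot be lower in DKO1, so for these the direction is partly fixed by how the subset was drawn. Calls over all tested genes were higher in DKO1 for 18.8% and lower for 9.60%, and among those at 1 TPM or above in every WT sample 11.3% were called lower. The balance of calls depends on scaling, with 2558 genes higher and 1306 lower as deposited, 2080 and 2094 with median-ratio factors, 2023 and 1901 with quantile-normalized values, and 3141 and 1040 after rescaling without mitochondrial and spike-in rows. Values in DKO1 below all WT values were found in 6 of the 10 genes active in WT and in 20.9% of all such genes, and values above all WT values in 30.3% of all rows low in WT and above 0 somewhere.

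**Figure D1:**
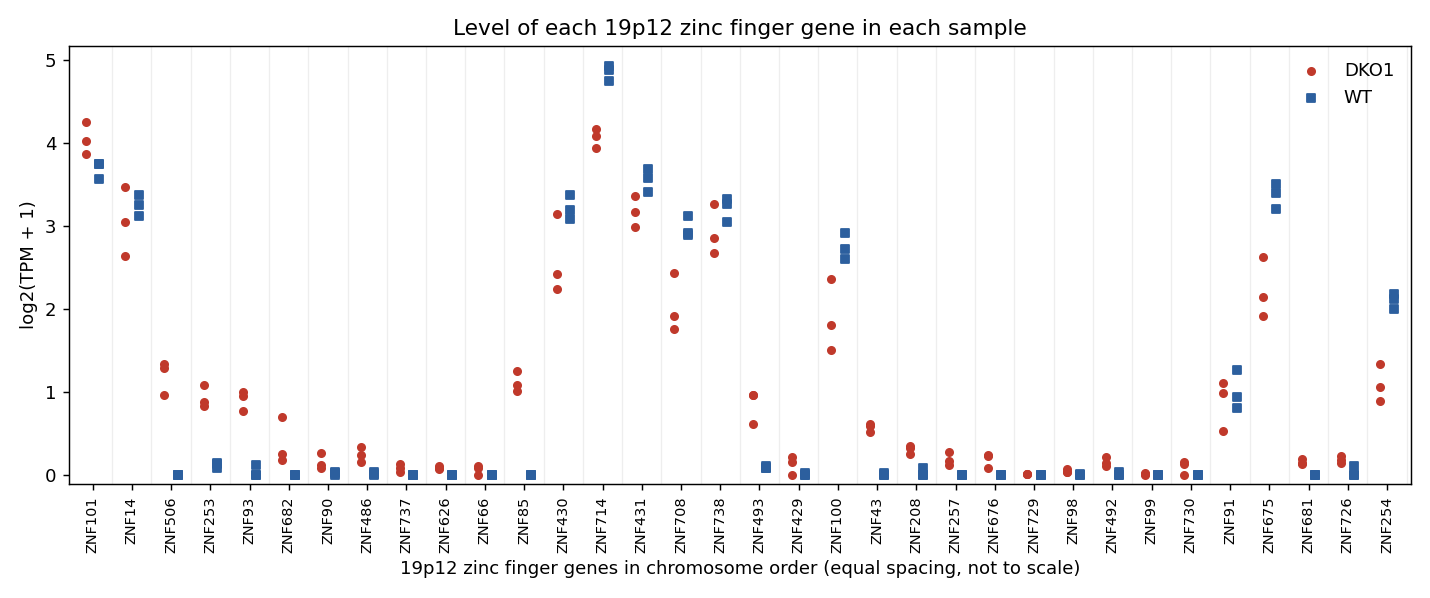
Level of each of the 34 genes in each sample, as log2(TPM + 1) on the vertical axis, with the genes in chromosome order and evenly spaced. Circles are the 3 DKO1 samples and squares the 3 WT samples. The genes with WT values above 2 on this scale stand in 3 stretches, at ZNF101 and ZNF14, from ZNF430 to ZNF100 with ZNF493 and ZNF429 low within it, and at ZNF675 and ZNF254, and most of their DKO1 points lie below the WT points.

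The filter on low values decided which genes could be tested. Only 11 of the 34 passed it, the 10 genes active in WT and ZNF85, and ZNF85 entered only because it was high in DKO1. The other 23, ZNF91 among them, have values but no call in this fit. The summed TPM of all 34 genes was 66.43, 78.92 and 90.5 in DKO1 replicates 1, 2 and 3, against 98.84, 103.3 and 105.8 in the WT replicates. The DKO1 sums were all below the WT sums and differed more among themselves. The genes low in WT contributed 7.52 ± 1.18 TPM to the sum in DKO1 and 0.29 ± 0.0361 TPM in WT, so most of the RNA of the cluster came from the genes active in WT in both genotypes.

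ZNF714 had the highest mean TPM of the cluster in both genotypes, in DKO1 only just above ZNF101. It was at 14.43, 17.06 and 16.03 TPM in DKO1, against 28.58, 25.86 and 29.39 TPM in WT. It fell 1.76-fold (log2 fold change −0.78, SE 0.13, adjusted p = 0.00368), with all DKO1 values well below the WT values and close to each other. ZNF675, whose product has been described as a negative regulator of TRAF6 signalling, was at 2.77, 3.42 and 5.17 TPM in DKO1, against 8.22, 10.4 and 9.56 TPM in WT. It fell 2.48-fold (log2 fold change −1.14, SE 0.21, adjusted p = 0.00693) and the groups did not overlap. ZNF254, the last of the 34 towards the centromere, was at 0.86, 1.09 and 1.54 TPM in DKO1, against 3.01, 3.55 and 3.34 TPM in WT. It fell 2.84-fold, the largest ratio of the 5 (log2 fold change −1, SE 0.17, adjusted p = 0.0038).

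The remaining falls were less firm. ZNF708 was at 2.39, 2.77 and 4.4 TPM in DKO1, against 6.44, 7.71 and 6.55 TPM in WT, a 2.17-fold fall (log2 fold change −0.94, SE 0.21, adjusted p = 0.014). Its groups did not overlap, and leaving out DKO1 replicate 1 (adjusted p = 0.0612) or WT replicate 2 (0.0591) ended the call. ZNF100 was at 1.84, 2.51 and 4.17 TPM in DKO1, against 5.62, 5.08 and 6.53 TPM in WT, a 2.02-fold fall (log2 fold change −0.85, SE 0.24, adjusted p = 0.0348). Its call ended when any sample but DKO1 replicate 3 was left out, with adjusted p from 0.0681 to 0.123, and also with no filter on low values (0.0639). In all 5 of the genes that fell, DKO1 replicate 1 had the lowest value of the genotype, and in 4 of them DKO1 replicate 3 had the highest. Mitochondrial transcripts made up 26.9%, 27.7% and 21.2% of TPM in DKO1 replicates 1, 2 and 3, so replicate 3 was also the DKO1 sample nearest to WT in that share. The same 5 genes were called lower after mitochondrial and spike-in rows had been removed and TPM rescaled.

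The other genes active in WT did not pass the test with TPM as deposited. ZNF431 was at 6.97, 8 and 9.32 TPM in DKO1, against 9.66, 11.94 and 11.01 TPM in WT, with no overlap of the groups (log2 fold change −0.39, SE 0.16, adjusted p = 0.118). ZNF430 was at 3.72, 4.38 and 7.89 TPM in DKO1, against 7.5, 9.4 and 8.17 TPM in WT (log2 fold change −0.61, SE 0.25, adjusted p = 0.111). In ZNF430 DKO1 replicate 3 lay within the WT range and replicates 1 and 2 below it, and without replicate 3 the gene was called (log2 fold change −0.89, adjusted p = 0.00999). With median-ratio factors both genes were called lower, ZNF430 with an adjusted p of 0.032 and ZNF431 with 0.0495. ZNF738 averaged 6.76 ± 1.69 TPM in DKO1 and 8.34 ± 0.909 TPM in WT, and ZNF14 averaged 7.55 ± 2.44 TPM in DKO1 and 8.57 ± 0.86 TPM in WT, both with overlapping groups (adjusted p = 0.318 and 0.56). ZNF101, at the outer edge of the cluster, was the one gene active in WT with a higher mean in DKO1. It was at 15.25, 18.17 and 13.62 TPM in DKO1, against 12.44, 10.85 and 12.41 TPM in WT, without overlap but not called (log2 fold change 0.36, SE 0.15, adjusted p = 0.12). ZNF91, the SVA repressor, was at 0.45, 1.16 and 0.99 TPM in DKO1, against 0.75, 1.41 and 0.92 TPM in WT, and the groups overlapped.

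Among genes low in WT, ZNF85 was the one tested. It was at 1.02, 1.12 and 1.39 TPM in DKO1 and listed at 0 in all 3 WT samples. It was called higher, but it entered the filtered fit only through its DKO1 values, so that call carries no weight. In the limma fit with no filter on low values its log2 fold change was 1.12 (SE 0.09, adjusted p = 0.000936). That fit still needs a value above 0 in some sample, which ZNF85 had in DKO1 alone. Its call there carries no weight either. With a pseudocount of 0.1 its log2 fold change was 3.66, since the size of a change from 0 depends on that choice. ZNF506 was at 0.96, 1.53 and 1.44 TPM in DKO1 and likewise listed at 0 in WT, just short of the filter. These were the 2 genes of the 23 with a DKO1 mean of at least 1 TPM.

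A second group stood a little below them. ZNF253 was at 0.79, 0.84 and 1.12 TPM in DKO1, against 0.1, 0.11 and 0.06 TPM in WT. ZNF93, the LINE-1 repressor, was at 0.71, 0.94 and 1.01 TPM in DKO1, against 0, 0.09 and 0 TPM in WT, and ZNF493 was at 0.53, 0.95 and 0.96 TPM in DKO1, against 0.08, 0.06 and 0.06 TPM in WT. In all 3 the lowest DKO1 value was several times the highest WT value. ZNF43 was at 0.44, 0.51 and 0.53 TPM in DKO1, against 0, 0.02 and 0 TPM in WT, and ZNF682 was at 0.62, 0.14 and 0.19 TPM in DKO1 and listed at 0 in WT, so that a single DKO1 sample carried much of its mean.

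The remaining 16 were close to silent in both genotypes, with DKO1 means from 0.01 TPM to the 0.243 TPM of ZNF208. They are ZNF90, ZNF486, ZNF737, ZNF626, ZNF66, ZNF429, ZNF208, ZNF257, ZNF676, ZNF729, ZNF98, ZNF492, ZNF99, ZNF730, ZNF681 and ZNF726. No WT value of any of the 23 genes passed 0.11 TPM, and 12 of the 23 were listed at 0 in all 3 WT samples. The groups overlapped in 4, namely ZNF66, ZNF429, ZNF99 and ZNF730, each with a DKO1 sample listed at 0. At these levels a value near the rounding of the table carries little weight, and ZNF729 at 0.01 TPM in each DKO1 sample and 0 in each WT sample counts as not overlapping.

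**Figure D2:**
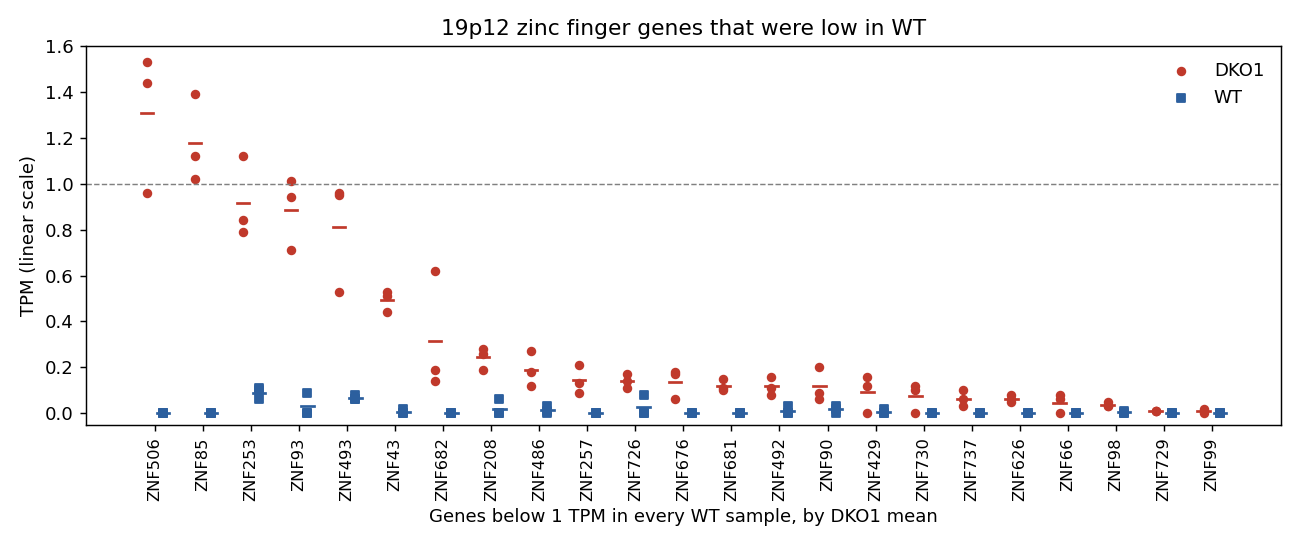
TPM on a linear axis for the 23 genes below 1 TPM in every WT sample, ordered by DKO1 mean. Circles are DKO1 samples, squares WT samples, short lines group means (n = 3), and the dashed line marks 1 TPM. ZNF506 and ZNF85 reach a DKO1 mean above the dashed line, and the WT values lie at or below 0.11 TPM.

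With that filter dropped all 34 genes entered the fit, of which 13 were called higher and 4 lower in DKO1, where 14.9% of the 29487 rows above 0 were called higher and 3.72% lower. The 13 were ZNF506, ZNF253, ZNF93, ZNF486, ZNF626, ZNF85, ZNF493, ZNF43, ZNF208, ZNF257, ZNF676, ZNF492 and ZNF681, with log2 fold changes from 0.09 to 1.2. Of these, 11 had DKO1 means below 1 TPM. ZNF506, ZNF626, ZNF85, ZNF257, ZNF676 and ZNF681 were at 0 in every WT sample. They entered this fit through their DKO1 values alone and could only be higher, so their calls carry no weight. The 4 lower genes were ZNF714, ZNF708, ZNF675 and ZNF254. Counted by overlap over all 34, the DKO1 values lay above all WT values in 20 genes and below them in 6, against 26.0% and 9.28% of all rows above 0.

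In gene order the 34 genes fell into 16 runs of like direction, 11 of them a single gene, and no test of clustering was made. The 8 neighbours from ZNF506 to ZNF626 all had DKO1 values above all WT values, and so did the 7 neighbours from ZNF43 to ZNF492, ZNF729 at 0.01 TPM among them. Since 19 of the 23 genes low in WT had such values, runs of them are frequent wherever genes low in WT adjoin. Between these blocks lay ZNF714, ZNF431 and ZNF708, which had DKO1 values below all WT values, with ZNF430 and ZNF738 on either side, and ZNF100 lay a few genes further on. ZNF675 and ZNF254 were set apart from that stretch and had the genes ZNF681 and ZNF726, low in WT, between them. Only the order of genes was used here, from GENCODE release 29, because the submitters' build differs from it.

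Other genes inside the cluster were mostly silent. Between the first and the last of the 34 lie 153 further rows of the table, largely pseudogenes and noncoding genes, of which 119 were at 0 in every sample. Of the 8 that could be tested 3 were lower in DKO1, 0 were higher and 5 did not pass. Over all tested genes 9.60% were lower and 18.8% higher at the same adjusted threshold. At an unadjusted limma p below 0.05, 0 of the 8 were higher and 3 lower. The share of all tested genes at that looser threshold is not given here. ZNF724, a zinc finger gene of the same cluster that is not among the 34, was at 1.93, 2.3 and 2.16 TPM in DKO1, against 3.65, 4.41 and 3.76 TPM in WT, and fell 1.85-fold (log2 fold change −0.66, SE 0.15, adjusted p = 0.0145). Its call was lost without DKO1 replicate 1 and without WT replicate 2 or 3, with adjusted p up to 0.0748. The vomeronasal receptor pseudogene VN1R81P was at 2.49, 3.01 and 3.87 TPM in DKO1, against 6.03, 8.08 and 6.9 TPM in WT (log2 fold change −0.96, SE 0.19, adjusted p = 0.00815). It lies within the gene model of ZNF714 on the same strand, so reads of one could be counted to the other. The third was an unprocessed pseudogene (ENSG00000213976.3) at 0.723 ± 0.246 TPM in DKO1 and 2.52 ± 0.267 TPM in WT (log2 fold change −1.04, SE 0.16, adjusted p = 0.00253).

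Genes outside the cluster served as a comparison. A list of 27 genes that are not zinc finger genes was taken from beside the cluster, on the side away from the centromere. It runs from UPF1, the helicase of nonsense-mediated decay, to ATP13A1, an ATPase of the endoplasmic reticulum. Of the 19 that were tested, 0 rose and 0 fell by limma, beside 18.8% higher and 9.60% lower over all tested genes at the adjusted threshold. At an unadjusted limma p below 0.05, 0 of the 19 rose and 0 fell. The share of all tested genes at that looser threshold is not given here, so these counts cannot be set against the adjusted shares. Their median log2 fold change was −0.01, against 0.07 over all tested genes. Their longest transcripts had a GC content of 51.9% to 62.9%. The 4 highest of 10 equal groups of tested genes by GC content span that range. In these groups 0.68% to 4.54% were called lower and 11.6% to 26.5% higher.

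Other zinc finger genes were set beside these values. The other ZNF genes of chromosome 19 include ZNF723, ZNF724 and ZNF728, which lie within the same cluster but are not among the 34. Of the 91 other ZNF genes on chromosome 19 that were at 1 TPM or above in every WT sample, 17 rose and 7 fell, with a median log2 fold change of 0.09. Of 159 such ZNF genes on other chromosomes 9 rose and 23 fell, with a median of −0.12. The 10 genes active in WT at 19p12 had 0 rises, 5 falls and a median of −0.7, and over all 11581 tested genes active in WT 11.8% rose and 11.3% fell. These are counts set side by side, and the difference between the sets was not tested.

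**Figure D3:**
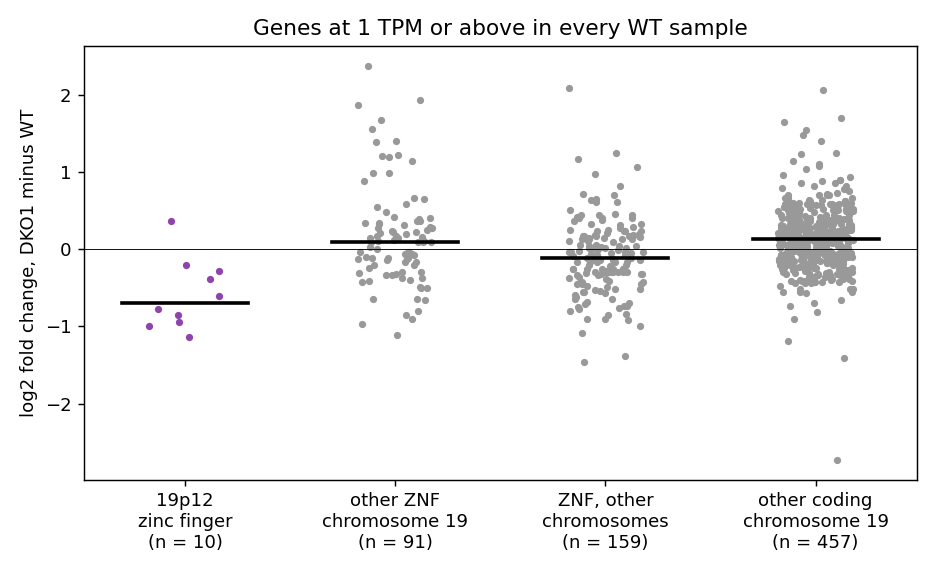
Log2 fold change (DKO1 minus WT) of genes at 1 TPM or above in every WT sample, 1 point per gene, for the 10 genes at 19p12, other ZNF genes of chromosome 19 (n = 91), ZNF genes on other chromosomes (n = 159) and other protein-coding genes of chromosome 19 (n = 457). Bars are medians, and that of the 19p12 genes is −0.7.

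The genes low in WT were set beside others low in WT in the same way. Of 110 other chromosome 19 ZNF genes that were below 1 TPM in every WT sample and above 0 in some sample, 94 (85.5%) had DKO1 values above all WT values, against 19 of 23 (82.6%) at 19p12 and 30.3% of all such rows. Among such ZNF genes on other chromosomes it was 33 of 61 (54.1%). A DKO1 mean of at least 1 TPM was reached by 2 of 23 (8.7%) at 19p12 and by 66 of 111 other chromosome 19 ZNF genes (59.5%). It was reached by 23 of 64 ZNF genes on other chromosomes (35.9%), by 9.09% of other protein-coding genes of chromosome 19 and by 3.74% of all human genes low in WT. The median DKO1 mean was 0.137 TPM among the 23 genes and 1.58 TPM among the 111, which include ZNF723 and ZNF728 of the same cluster. The highest DKO1 mean was 1.31 TPM among the 23 and 34.7 TPM among the 111. The difference in these shares was not tested.

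**Figure D4:**
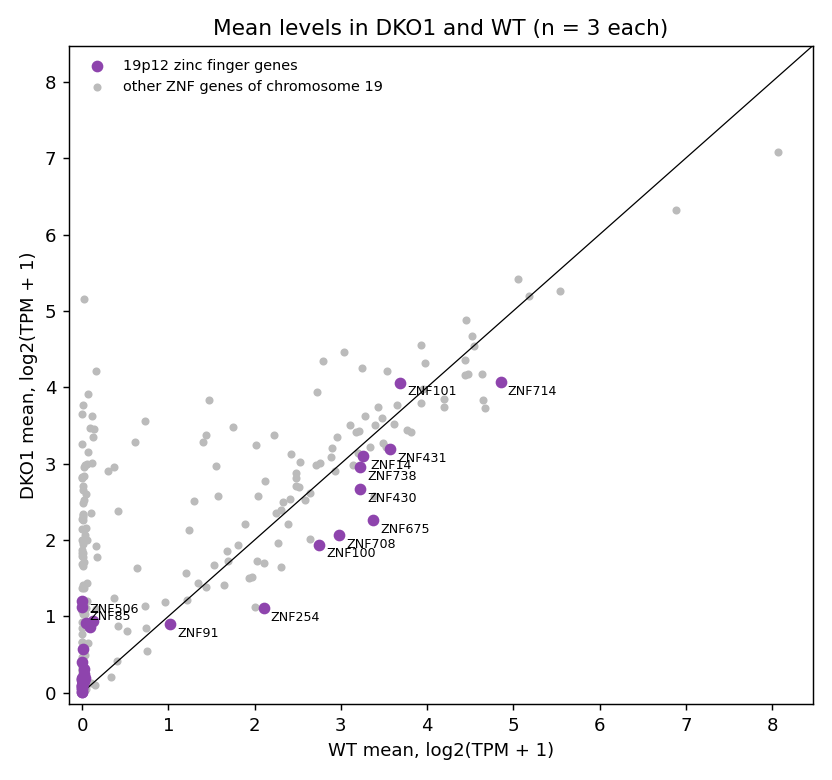
DKO1 mean against WT mean (n = 3 each), both as log2(TPM + 1), for the 34 genes at 19p12 and the other ZNF genes of chromosome 19, with the line of equal means. Many of the other genes have high DKO1 means at the left edge, where WT is near 0, while those at 19p12 that are low in WT stay at or below a DKO1 mean of 1.31 TPM, and 9 of the 10 active in WT lie below the line.

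Base composition moved with the falls. The longest transcripts of the 34 genes had a GC content of 33.9% to 45%, with a median of 37.4%, against a median of 46.7% over tested genes. Across all tested genes the change in DKO1 varied with this property: in the lowest of 10 equal groups by GC content, which holds 9 of the 11 tested genes of the cluster, the median log2 fold change was −0.28 with 22.8% called lower, and in the highest it was 0.18 with 0.68% called lower. Among the 857 other tested genes with a GC content in the range of the 5 that fell, 34.1% to 37.5%, the median was −0.29 and 23.6% were lower. Of these, 770 were at 1 TPM or above in every WT sample, as the 5 were, with a median of −0.35 and 26.2% lower. Of the 56 other chromosome 19 ZNF genes that were active in WT and had a GC content of 34.1% to 45%, the range of the 10 genes active in WT, 7 were higher and 6 lower, with a median of −0.02. When the trend with GC content was subtracted from each sample, the same 5 genes were lower, where 20.7% of genes were called lower and 17.0% higher. ZNF85 was called higher, but it entered this fit too only through its DKO1 values, so that call carries no weight. The log2 fold changes of the 5 were then −0.59 for ZNF714, −0.95 for ZNF675, −0.72 for ZNF254, −0.75 for ZNF708 and −0.57 for ZNF100. Each was smaller in size than without the subtraction.

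**Figure D5:**
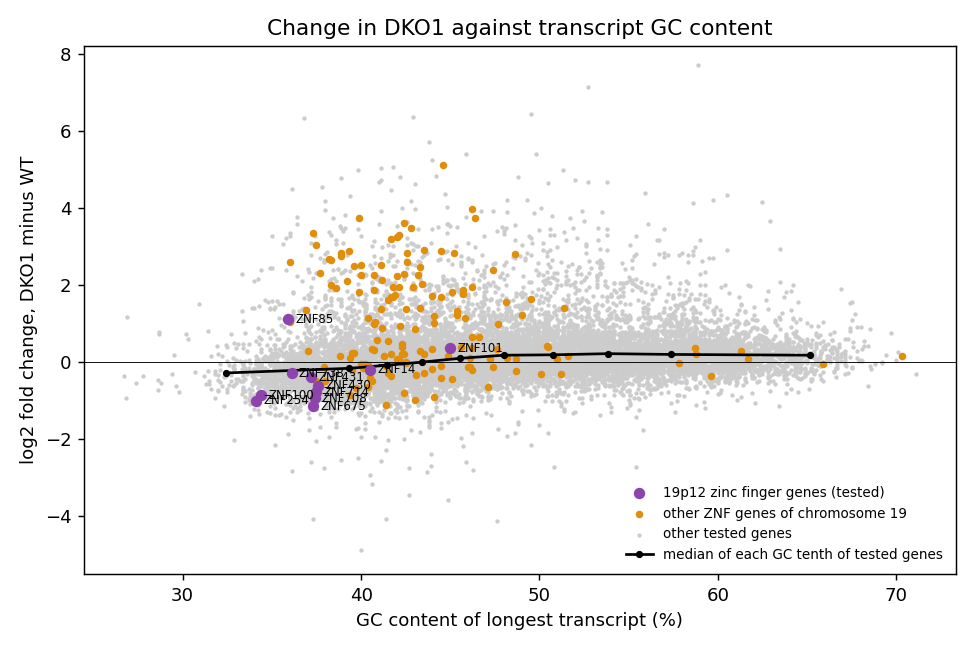
Log2 fold change (DKO1 minus WT) against GC content of the longest transcript in percent, for the 11 tested genes at 19p12, other ZNF genes of chromosome 19 and all other tested genes. The line joins the medians of 10 equal groups by GC content and runs from −0.28 at the low end to 0.18 at the high end, and the 5 genes that fell lie below it.

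Promoters of the cluster resemble each other, and those of ZNF85 and ZNF714 are shown whole because the first gene was higher in DKO1 and the other fell. A RefSeq promoter window, 250 bases before the start and 50 after it on GRCh38.p14, was found for 27 of the 34. The 10-base word TCCAATCAGG, which contains the letters of a CCAAT box, was found on the gene's own strand in 25 of the 27, with 20 to 78 bases (median 48) between it and the start, and is in capitals below. In 6 genes the word occurs more than once. The distance there is that of a single copy, so the range and median depend on the copy taken. On either strand the word was in 0.388% of 27305 promoters, in 18 of 181 other chromosome 19 ZNF genes (9.94%) and in 13 of 189 ZNF genes on other chromosomes (6.88%). The word was taken from these promoters as the 10-base word that most of them share, and the genes are related by duplication. ZNF85, listed at 0 in WT and higher in DKO1, has the window chr19:20923001-20923300 on the + strand, and ZNF714, which fell, has chr19:21081953-21082252 on the + strand.
ZNF85: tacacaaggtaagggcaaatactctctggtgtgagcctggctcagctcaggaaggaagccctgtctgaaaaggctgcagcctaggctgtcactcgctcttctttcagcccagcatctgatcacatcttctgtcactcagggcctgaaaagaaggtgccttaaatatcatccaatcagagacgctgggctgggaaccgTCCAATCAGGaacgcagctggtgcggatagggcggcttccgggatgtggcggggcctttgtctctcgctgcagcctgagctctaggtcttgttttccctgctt
ZNF714: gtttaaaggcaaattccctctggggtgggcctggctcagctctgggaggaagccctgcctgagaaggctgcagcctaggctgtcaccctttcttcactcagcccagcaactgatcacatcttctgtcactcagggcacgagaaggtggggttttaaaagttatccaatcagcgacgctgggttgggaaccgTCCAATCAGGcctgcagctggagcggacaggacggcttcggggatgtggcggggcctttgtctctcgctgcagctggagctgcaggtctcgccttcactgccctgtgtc
Stretches of 60 bases around the word show the likeness for 3 more genes active in WT, ZNF430 (chr19:21020574-21020633, + strand), ZNF100 (chr19:21767597-21767656, − strand) and ZNF254 (chr19:24087109-24087168, + strand).
ZNF430: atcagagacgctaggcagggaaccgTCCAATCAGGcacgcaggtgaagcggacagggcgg
ZNF100: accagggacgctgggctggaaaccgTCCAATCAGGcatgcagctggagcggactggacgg
ZNF254: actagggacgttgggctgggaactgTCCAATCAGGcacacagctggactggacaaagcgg
The next 3 are ZNF681 (chr19:23758915-23758974, − strand) and ZNF726 (chr19:23914802-23914861, + strand), both low in WT, and ZNF91 (chr19:23395496-23395555, − strand), with overlapping groups.
ZNF681: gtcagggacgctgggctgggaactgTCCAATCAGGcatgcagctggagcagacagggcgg
ZNF726: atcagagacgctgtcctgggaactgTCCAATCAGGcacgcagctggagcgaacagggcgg
ZNF91: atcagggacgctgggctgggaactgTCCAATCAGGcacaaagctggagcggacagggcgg

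Being nearly universal in these promoters, the word could not separate the genes by activity. It was in 9 of 9 windows of genes active in WT and in 15 of 17 of genes low in WT, and the 2 windows without it, of ZNF493 and ZNF257, belong to genes low in WT. A second shared word that holds no 5-base run of the first, CTGTCACTCA, was in 5 of 9 and 16 of 17, and in 0.385% of all promoters. It was in 6.08% of other chromosome 19 ZNF genes and in 4.23% of ZNF genes on other chromosomes. This word too was taken from the promoters of the cluster, and the difference between the subsets was not tested. CpG sites, the places where human DNA is methylated, numbered 8 to 18 per window with a median of 10 in both subsets. The ratio of observed to expected CpG had a median of 0.493 in genes active in WT and 0.419 in genes low in WT, against 0.798 in other chromosome 19 ZNF genes and 0.58 in all promoters. Across the 27 genes this ratio and the log2 fold change from the fit with no filter had a Pearson r of −0.0565 and a Spearman rho of −0.105, as a description over related genes. Methylation itself was not analysed here.

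Some genes of the machinery that KRAB zinc finger proteins work through changed. Of 20 genes for the TRIM28 pathway and for heterochromatin at zinc finger genes, all tested, 1 rose, 6 fell and 13 did not pass. Their median log2 fold change was −0.29. Over all tested genes 18.8% were higher and 9.60% lower. All 20 were at 1 TPM or above in every WT sample, and of all such tested genes 11.8% rose and 11.3% fell. The one gene of the list that rose was ZNF274, a zinc finger protein that binds the 3′ ends of zinc finger genes and brings SETDB1 there. It was at 20.98, 16.71 and 25.26 TPM in DKO1, against 7.94, 6.6 and 7.15 TPM in WT (log2 fold change 1.4, SE 0.18, adjusted p = 0.00106). TRIM28 and SETDB1, given as the core of the pathway whatever their values, did not pass. TRIM28 was at 116.38, 45.77 and 147.61 TPM in DKO1, against 147.98, 80.88 and 134.2 TPM in WT, and SETDB1 at 31.86, 28.72 and 34.23 TPM in DKO1, against 38.33, 27.72 and 34.38 TPM in WT. In both the groups overlapped, and replicate 2 was the lowest of its genotype.

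The 6 that fell on that list were ATRX, SMARCAD1, TASOR, CBX3, SUV39H2 and CBX1. ATRX, a chromatin remodeller found at zinc finger genes, was at 11.64, 16.78 and 27.96 TPM in DKO1, against 33.04, 39.44 and 37.57 TPM in WT (log2 fold change −1.01, SE 0.28, adjusted p = 0.0344). SMARCAD1, another remodeller, averaged 33.7 ± 11.3 TPM in DKO1 and 61.8 ± 4.05 TPM in WT (log2 fold change −0.91, adjusted p = 0.0269), and TASOR, a subunit of the HUSH silencing complex, averaged 23 ± 7.79 TPM in DKO1 and 42.5 ± 4.67 TPM in WT (log2 fold change −0.9, adjusted p = 0.0261). In ATRX, SMARCAD1 and TASOR, as in the zinc finger genes that fell, DKO1 replicate 1 was the lowest DKO1 sample, here with replicate 3 the highest in each. Their longest transcripts had a GC content of 36% to 36.8%, within the range of the zinc finger genes that fell. Leaving out single samples ended the ATRX call in 5 of 6 cases, the TASOR call in 5 and the SMARCAD1 call in 3, with adjusted p up to 0.106, 0.09 and 0.087. The ATRX and SMARCAD1 calls also ended with no filter (adjusted p = 0.0649 and 0.052). The other 3 are named because their values were seen to pass. CBX3, a heterochromatin protein, averaged 427 ± 124 TPM in DKO1 and 769 ± 61.2 TPM in WT (log2 fold change −0.89, adjusted p = 0.0181). SUV39H2, a histone methyltransferase, and CBX1, a heterochromatin protein, had log2 fold changes of −0.65 and −0.34 (adjusted p = 0.0192 and 0.0433). These 3 stayed called with no filter, and leaving out single samples ended the call of CBX3 in 2 of 6 cases, of SUV39H2 in 3 and of CBX1 in 5, with adjusted p up to 0.0685, 0.0804 and 0.162.

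Near-identical copies could move reads between these genes, so the likeness was measured on transcripts. For each gene the share of 75-base stretches of its longest GENCODE transcript that also occur in a transcript of another gene had a median of 0.741%, and was at most 4.93% in 31 of the 34. The exceptions were ZNF98 (45.1%) and ZNF492 (24.5%), which mostly share with each other, and ZNF254 (5.42%), which shares mostly with a long noncoding RNA gene that overlaps it on the same strand. The split of reads between ZNF98 and ZNF492, both near 0, is therefore uncertain. For the other genes that fell the share was 0.475% in ZNF714, 0.241% in ZNF675, 0% in ZNF708 and 1.75% in ZNF100. Only exact matches were counted, so copies with scattered differences are missed. A low share therefore does not show that all reads were placed correctly.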

How the data were processed

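Gene-level RNA abundance of 3 DKO1 and 3 WT samples was analysed. The authors deposited TPM per gene with 2 decimals. The tools named, without role or order, per the submitters' processing notes are RSEM 1.2.21, STAR 2.5.3a, edgeR 3.12.1, Trim Galore 0.4.0 and FastQC, and the builds are GRCh37 and hg19. Which annotation release was used, and whether counting used strand, is not given in the sources used here. Per the labels' protocols, TRIzol RNA went into stranded messenger RNA libraries. TPM holds no depth, so no counting interval is given.

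The table held 57897 rows, of which 77 were not in the format of human genes and stayed out of the tests. Symbols, biotypes, GC content and gene order came from GENCODE release 29 and a gene name table, by Ensembl identifier without version, and promoters from RefSeq. Genotype was the single term of a limma 3.58.1 model (R 4.3.3) of log2(TPM + 1), with a trended prior variance, and the procedure was tested on simulated data. Ratios of TPM are given only where both means reach 0.5 TPM. Alternatives were another pseudocount, other filters and scalings, no trend, the replicate block and leaving out each sample. The rescaling and the GC subtraction (lowess, span 0.3) were added after the data were seen. Same-numbered samples deviated together (r = 0.35, 0.572 and 0.267 between DKO1 and WT for numbers 1, 2 and 3). For unlike numbers r was from −0.383 to 0.128. The numbers may therefore pair the samples, least clearly for number 3, but the labels state no pairing. The main model has no term for it.

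All 34 members are accounted for. Those called, or at 5 TPM in either mean, are described singly. Members, lists and tests were chosen with earlier results of these data known.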

Additional observations from a re-analysis of the deposited data

How the results depend on the processing

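Of the genes called, ZNF714, ZNF675 and ZNF254 kept direction and call in every alternative in which they were tested, with log2 fold changes from −0.92 to −0.59, −1.42 to −0.95 and −1.46 to −0.72. ZNF85 was called in the 12 alternatives that tested it (0.91 to 3.66), but those that could end its call drop it from the test. The replicate block changed no call among the 11 tested genes (1 higher and 5 lower with it), nor did the block together with the GC subtraction (1 and 5). Over all 13604 tested genes the block called 3053 higher and 1817 lower. The block with the GC subtraction called 2594 higher and 3461 lower of 13225. With no filter 13 genes were called higher, some of which entered through DKO1 values alone, beside 4400 of 29487 rows. With a mean of at least 5 TPM 0 were higher and 3 lower, since ZNF85, ZNF100 and ZNF254 are then not tested. Over all 9051 genes of that fit 1145 were higher and 1077 lower. Median-ratio scaling called 7 lower, adding ZNF430 and ZNF431, and quantile normalization 8, adding ZNF738 too. Over all 13604 tested genes these called 2094 and 1901 lower. Leaving out a sample gave 0 to 1 higher, because ZNF85 misses the filter without any one DKO1 sample, and 3 to 6 lower. Over all genes tested, 12316 to 13437 in these fits, 926 to 1949 were higher and 478 to 1960 lower. The median of the tested genes was −0.61 (0.11 with no filter, which adds the genes low in WT), and that over all 34 was 0.11 (0.71 with a pseudocount of 0.1, 0.04 under quantile normalization and 0.14 with rescaling; 0.09 to 0.13 without a sample). Summed TPM in DKO1 was 0.766 of that in WT, 0.689 under median-ratio scaling and 0.825 with rescaling. ZNF14, not called, had a log2 fold change of −0.41 to 0.01 when a sample was left out, the highest without DKO1 replicate 1. Scaling moved the median of all tested genes to −0.06 (quantile), −0.05 (median-ratio), 0.17 (rescaled) and −0.08 (GC subtraction), against 0.07 as deposited. For low genes the rounding of TPM and unknown depth limit what can be read.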
